A study of Mus musculus with 7 samples.

Results

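The CSF1 receptor axis was examined here through 7 genes of the 29517 in the count table, chosen by name: the receptor Csf1r, its ligands Csf1 and Il34, the transcription factors Spi1 and Maf, and the surface receptors Adgre1 and Cx3cr1 that mark macrophages. All 7 were found in the table and all 7 passed the filter on low counts, among 19185 genes tested. The mRNA came from inguinal white adipose tissue, the subcutaneous fat of the groin, in 3 TM4SF5-/- libraries (KO) and 4 wild-type libraries (WT). Both groups were on the C57BL/6 strain, ate standard chow and were untreated. The labels give no age or sex, do not say which part of Tm4sf5 was removed or in which cells, and name no litter or batch. The submitters' design text counts 3 replicates in each condition, but 4 WT libraries are labelled, and all 7 were used.

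CSF1R is a receptor tyrosine kinase on monocytes and macrophages, and signalling through it keeps most tissue macrophages alive. CSF1, made by stromal, endothelial and other cells, and IL-34, known best from skin and brain, are unrelated in sequence but bind the same receptor. PU.1, the product of Spi1, is an ETS family factor that myeloid cells need to form and that activates Csf1r, and MAF is a bZIP factor of tissue-resident macrophages. In fat, macrophages clear dead adipocytes and handle lipid and iron. The comparison asked whether the ligands were lower together with the receptor in KO fat.

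Promoter sequences are shown for a ligand and a macrophage receptor, Csf1 and Cx3cr1, the 2 members for which the RefSeq promoter table was used. Each runs from 250 bases before to 50 bases after the annotated start and is written 5′ to 3′ on the strand of the gene (RefSeq, GRCm38.p6). The Csf1 window is chr3:107760420-107760719 on the minus strand, and the Cx3cr1 window is chr9:120068247-120068546 on the minus strand. Capitals mark any match to 6 motifs of factors that act in macrophages.
Csf1: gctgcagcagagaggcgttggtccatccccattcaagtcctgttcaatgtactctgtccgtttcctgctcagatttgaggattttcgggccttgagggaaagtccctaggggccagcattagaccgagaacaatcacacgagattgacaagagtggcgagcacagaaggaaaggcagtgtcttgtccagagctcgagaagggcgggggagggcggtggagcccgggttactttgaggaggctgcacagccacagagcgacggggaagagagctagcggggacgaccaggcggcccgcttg
Cx3cr1: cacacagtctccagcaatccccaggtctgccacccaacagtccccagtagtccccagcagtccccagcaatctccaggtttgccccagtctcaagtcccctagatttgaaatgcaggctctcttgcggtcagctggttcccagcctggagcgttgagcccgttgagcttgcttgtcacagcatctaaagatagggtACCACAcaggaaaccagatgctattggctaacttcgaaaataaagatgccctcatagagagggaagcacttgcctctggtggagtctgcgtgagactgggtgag

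The motifs, searched on both strands, were GAGGAA for PU.1, TGCTGA for MAF, TGTGGT for RUNX, TGANTCA for AP-1, TTGCNNAA for C/EBP and the IRF motif. The Csf1 window held none of the 6. The Cx3cr1 window held 1, a RUNX match on the opposite strand whose first letter lies 54 bases before the start and which overlaps no other match. Among 32851 promoter windows of the same length, 28.3% held the PU.1 letters, 19.5% the MAF letters, 16.8% the RUNX letters, 10.8% the C/EBP letters, 7.81% the AP-1 letters and 3.44% the IRF letters. The Csf1 window had 58.7% G and C and 16 CpG dinucleotides, and the Cx3cr1 window had 54.3% and 5, beside medians of 52.7% and 7 over all windows.

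Library totals ran from 49775077 to 50704542 counts in KO and from 55717495 to 60241436 in WT. Tm4sf5 itself had 7, 6 and 17 counts in KO 1 to KO 3, against 33, 45, 47 and 20 in WT 1 to WT 4, so KO 3 and WT 4 overlapped once scaled (0.353 against 0.322 CPM). On the first principal component, which held 35.7% of the variance, KO 1 lay farthest out (-90.63). WT 1 (-8.484) lay between KO 2 (-43.67) and KO 3 (-3.633), so this component did not separate the groups. Reads from any part of Tm4sf5 left in KO would still be counted. Libraries also differed in markers of other tissues. Skeletal muscle markers summed to 16.1 to 142 CPM in KO, against 17.6 and 4.07 CPM in WT 1 and WT 3 and 534 and 1240 CPM in WT 2 and WT 4. B cell and lymph node markers summed to 446 to 1300 CPM in KO and 516 to 2100 CPM in WT. The adipocyte markers, at a summed 19500 to 34400 CPM in KO and 11300 to 17300 CPM in WT, were abundant in every library. None of the markers of these lists was at 0 in all 7 libraries.

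Csf1r was lower in all 3 KO libraries than in any WT library. It had 52.1, 73.0 and 70.6 CPM (counts scaled to the size of the library) in KO 1 to KO 3, against 346, 167, 267 and 159 CPM in WT 1 to WT 4. The highest KO value was 0.46 times the lowest WT value, and the WT libraries themselves spread 2.18-fold, with WT 1 highest and WT 4 lowest. The means were 65.2 ± 11.4 CPM in KO (SD, n = 3) and 235 ± 89.2 CPM in WT (SD, n = 4). On the log2 scale KO differed from WT by -1.85 (SE 0.31, 95% interval -2.57 to -1.13), with an edgeR p of 0.000347 and 0.0956 after adjustment over all genes. In bulk tissue, fewer macrophages and less Csf1r mRNA per macrophage cannot be told apart. Csf1r (Entrez 12978) lies on the plus strand of chromosome 18 from 61105572 to 61131139, and the genes whose spans overlap it and are in the table had at most 0.0113 CPM on average.

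No gene of the 19185 passed an adjusted p of 0.05 with edgeR (0%), the lowest being 0.0798. At an unadjusted p under 0.05, 6 of the 7 members were lower in KO and 0 higher, where 9.51% of all genes tested were lower and 12.3% higher (4187 genes in both directions). The values of 4 members, Csf1r, Spi1, Maf and Cx3cr1, did not overlap between the groups, all below WT, as was so for 8.92% of all genes, and 11.4% lay wholly above WT. With DESeq2, 5 members had an adjusted p under 0.05, namely Csf1r, Spi1, Maf, Adgre1 and Cx3cr1, all lower in KO, beside 5.49% of genes called lower and 7.26% called higher. Neither ligand was called by any of the tools. The members were picked with results for this tissue known, so these counts describe them and are not a test of the set.

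**Figure D1:**
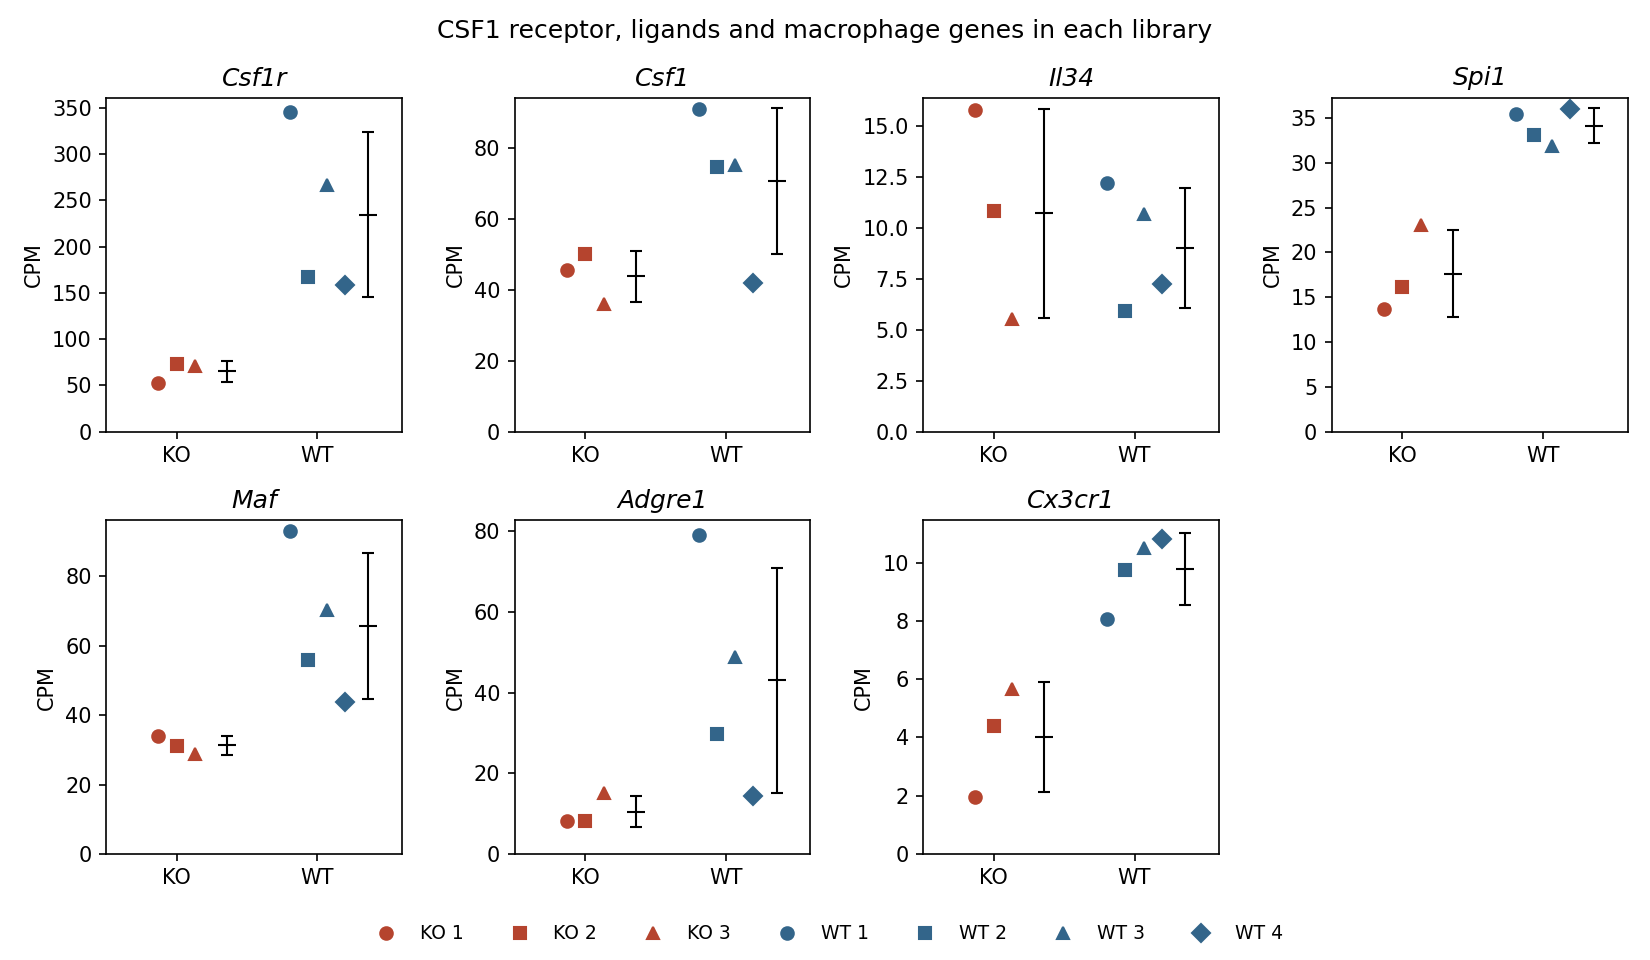
Level of each member in CPM (vertical axis, from 0) in the 3 KO libraries, left, and the 4 WT libraries, right; symbols give the replicate number and the bar the mean ± SD. Csf1r, Spi1, Maf and Cx3cr1 do not overlap between KO and WT, whereas Csf1, Il34 and Adgre1 do.

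Of the ligands, Csf1 was lower on average with overlapping groups, and Il34 was not lower. Csf1 had 45.4, 50 and 35.9 CPM in KO 1 to KO 3, against 90.9, 74.6, 75.1 and 41.9 CPM in WT 1 to WT 4. KO 3 alone lay below every WT library, and WT 4 lay below KO 1 and KO 2. The means were 43.8 ± 7.21 CPM in KO (SD, n = 3) and 70.6 ± 20.6 CPM in WT (SD, n = 4). KO differed from WT by -0.69 in log2 (SE 0.26, 95% interval -1.29 to -0.09). The edgeR p was 0.0286 and 0.182 after adjustment over all genes. Leaving out WT 1, WT 2, WT 3, KO 1 or KO 3 took Csf1 out of the genes with an unadjusted edgeR p under 0.05, at log2 fold changes of -0.54 to -0.72. Leaving out WT 4 gave -0.87 (edgeR adjusted p = 0.0865). Csf1 (Entrez 12977) lies on the minus strand of chromosome 3 from 107741048 to 107760469.

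Il34 was the only member with a positive log2 fold change. It had 15.8, 10.8 and 5.51 CPM in KO 1 to KO 3, against 12.2, 5.91, 10.7 and 7.22 CPM in WT 1 to WT 4. KO 1 was the highest of the 7 libraries and KO 3 the lowest, so the KO values enclosed the WT values. The log2 fold change was 0.25 (SE 0.38, 95% interval -0.64 to 1.13, edgeR adjusted p = 0.731), and its sign turned without KO 1 (-0.14), without WT 2 and WT 4 (-0.10) and with total counts alone (-0.10). That interval includes 0 and does not reach the -1.85 measured for Csf1r. Il34 (Entrez 76527) lies on the minus strand of chromosome 8 from 110741829 to 110805949.

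Whether the ligands followed the receptor was tested on their ratios within each library, which do not depend on how libraries are scaled. The count ratio of Csf1 to Csf1r was 0.871, 0.685 and 0.508 in KO 1 to KO 3, against 0.263, 0.446, 0.281 and 0.264 in WT 1 to WT 4. Every KO library was above every WT library, and WT 2 stood above the other WT libraries. The log2 ratio averaged -0.57 ± 0.39 in KO (SD, n = 3) and -1.71 ± 0.37 in WT (SD, n = 4), a difference of 1.14 (exact permutation p = 0.0571, two-sided). The ratio of Il34 to Csf1r was 0.304, 0.148 and 0.078 in KO 1 to KO 3, against 0.0351, 0.0354, 0.0401 and 0.0456 in WT 1 to WT 4. It was nearly level across the WT libraries and higher in each KO library, 3.91-fold on average. The difference in mean log2 ratio was 1.97, and its exact permutation p of 0.0286 is the smallest that the 35 splits of 7 libraries into 3 and 4 allow. After Benjamini-Hochberg adjustment over the 6 ratios to Csf1r, the exact p-values became 0.114 for Csf1 and 0.0858 for Il34, so neither passed 0.05. Between the ligands, the log2 ratio of Csf1 to Il34 was 2.15 ± 0.60 in KO (SD, n = 3) and 2.98 ± 0.48 in WT (SD, n = 4), and the exact permutation p was 0.0857.

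Levels of different genes were compared per kilobase of transcript, with the length of the longest transcript paired with a curated RefSeq mRNA. On that scale the summed ligands were at 19.7, 18.0 and 11.7 CPM per kilobase in KO 1 to KO 3, against 28.5, 21.1, 23.9 and 14.1 in WT 1 to WT 4. The receptor was at 13.5, 18.9 and 18.2 CPM per kilobase in KO, against 89.5, 43.2, 69.1 and 41.0 in WT. The sum of the ligands over the receptor was 1.46, 0.953 and 0.639 in KO 1 to KO 3, against 0.319, 0.49, 0.347 and 0.343 in WT 1 to WT 4. With these lengths, ligand mRNA was above receptor mRNA in KO 1 and near it in KO 2. Ligand mRNA was below receptor mRNA in KO 3 and in every WT library. Isoforms were not estimated, and other transcript lengths would shift these ratios. Every KO ratio was above every WT ratio, with KO 3 (0.639) nearest to WT 2 (0.49). Il34 made up 44.8%, 33.4% and 26.3% of the ligand sum in KO 1 to KO 3, against 23.7%, 15.6%, 24.9% and 28.6% in WT 1 to WT 4, with KO 3 inside the WT range.

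By mean level per kilobase, the order in KO was Csf1r (16.9), Csf1 (10.5), Spi1 (8.68), Il34 (5.96), Maf (4.91), Adgre1 (3.23) and Cx3cr1 (1.07). In WT it was Csf1r (60.7), Csf1 (16.9), Spi1 (16.8), Adgre1 (13.3), Maf (10.3), Il34 (5.01) and Cx3cr1 (2.60). Csf1r stood clear of the next gene in both groups, and Cx3cr1 stood clear of the gene above it. In KO the neighbours from Csf1 down to Adgre1 overlapped in range. In WT those from Csf1 down to Maf did, and the lowest Maf library (6.89 CPM per kilobase) was just above the highest Il34 library (6.78). The length used for Maf, 6360 bases, is longer than its annotated span from 115703253 to 115706894. Its values per kilobase may therefore be too low, and its place in the order is uncertain in KO and in WT.

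**Figure D2:**
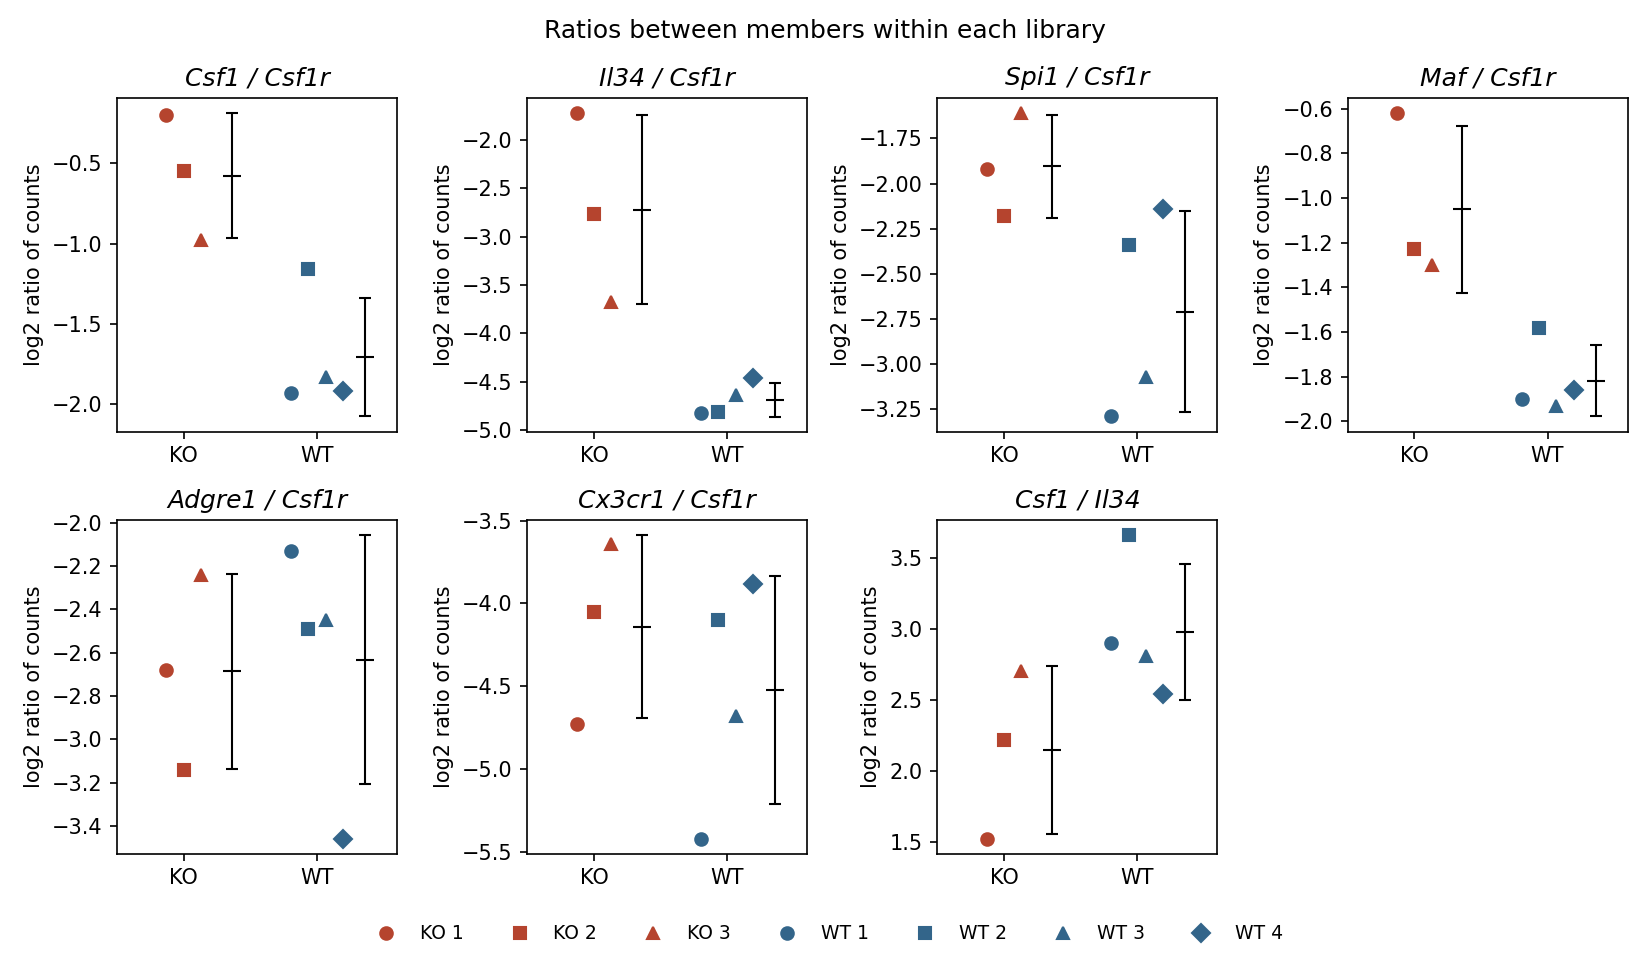
Log2 ratio of the counts of each member to Csf1r, and of Csf1 to Il34, in each library, with KO left of WT and the mean ± SD as a bar. The ratios of Csf1, Il34 and Maf to Csf1r are above every WT library in all 3 KO libraries, and those of Adgre1 and Cx3cr1 to Csf1r overlap.

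Both transcription factors were lower in every KO library. Spi1, which encodes PU.1, had 13.7, 16.1 and 23.1 CPM in KO 1 to KO 3, against 35.5, 33.1, 31.9 and 36.0 CPM in WT 1 to WT 4. The WT libraries spread only 1.13-fold, the narrowest of the members, whereas KO 3 was closer to WT than KO 1 and KO 2. The difference in log2 was -0.95 (SE 0.19, edgeR adjusted p = 0.0956). Maf had 34.0, 31.0 and 28.8 CPM in KO 1 to KO 3, against 93.0, 55.9, 70.2 and 43.8 CPM in WT 1 to WT 4, a log2 fold change of -1.07 (SE 0.25, edgeR adjusted p = 0.0967). Here the KO libraries were close together and the WT libraries spread 2.12-fold. Spi1 (Entrez 20375) lies on chromosome 2 from 91082374 to 91115759, and Maf (Entrez 17132) on chromosome 8 from 115703253 to 115706894.

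Relative to the receptor, Maf was at a higher level in every KO library. Its count ratio to Csf1r was 0.651, 0.425 and 0.407 in KO 1 to KO 3, against 0.268, 0.335, 0.262 and 0.276 in WT 1 to WT 4, a difference of 0.77 in mean log2 ratio (exact permutation p = 0.0286, adjusted over the 6 ratios 0.0858). The difference for Spi1 was 0.80 (exact permutation p = 0.143, adjusted 0.214), with 2 of 3 KO libraries above every WT library.

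The surface receptors differed in how evenly they were lower. Adgre1, the gene of the macrophage antigen F4/80, had 8.16, 8.28 and 15.0 CPM in KO 1 to KO 3, against 79.1, 29.7, 48.9 and 14.4 CPM in WT 1 to WT 4. It had the most negative log2 fold change of the members, -2.04 (SE 0.56, edgeR adjusted p = 0.111), and the widest WT spread, 5.49-fold, so that KO 3 lay above WT 4. Cx3cr1, the receptor for the chemokine CX3CL1 on monocytes and some tissue macrophages, had 1.96, 4.40 and 5.67 CPM in KO 1 to KO 3, against 8.07, 9.75, 10.5 and 10.8 CPM in WT 1 to WT 4. No KO library reached a WT library, and KO differed by -1.28 in log2 (SE 0.34, edgeR adjusted p = 0.109). A long non-coding gene whose span overlaps Cx3cr1 was counted at 0.677 CPM in KO and 0.632 CPM in WT, and how reads in the shared span were assigned is not given in the sources used here. For neither gene was a shift relative to Csf1r detectable with these libraries. The mean log2 ratio to Csf1r differed by -0.05 for Adgre1 (exact permutation p = 0.943) and by 0.38 for Cx3cr1 (exact permutation p = 0.514). Adgre1 (Entrez 13733) lies on chromosome 17 from 57358581 to 57483529, and Cx3cr1 (Entrez 13051) on chromosome 9 from 120048683 to 120068296.

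The order of the WT libraries differed between members. Csf1r, Csf1, Maf and Adgre1 were each highest in WT 1, then WT 3, then WT 2, and lowest in WT 4. Spi1 and Cx3cr1 were highest in WT 4 but were otherwise ordered differently from each other, and Il34 was highest in WT 1 and lowest in WT 2. The summed stromal markers, which include Pdgfra and collagen genes, followed the first order, at 14400, 3730, 6030 and 1180 CPM in WT 1 to WT 4, and were at 4430, 4470 and 1650 CPM in KO 1 to KO 3. The summed B cell and lymph node markers followed the reverse order, at 516, 1510, 1120 and 2100 CPM in WT 1 to WT 4, and were at 446, 727 and 1300 CPM in KO 1 to KO 3. The summed endothelial markers followed the first order as well, at 1270, 553, 762 and 340 CPM in WT 1 to WT 4. In KO 1 to KO 3 they were at 828, 1010 and 501 CPM. Within KO, the stromal and endothelial sums were lowest and the lymph node sum highest in KO 3. There Csf1, Maf and Il34 were at their lowest and Spi1, Adgre1 and Cx3cr1 at their highest, while Csf1r was lowest in KO 1 and highest in KO 2. The part of these tissue contents in the differences between KO and WT was not tested.

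**Figure D3:**
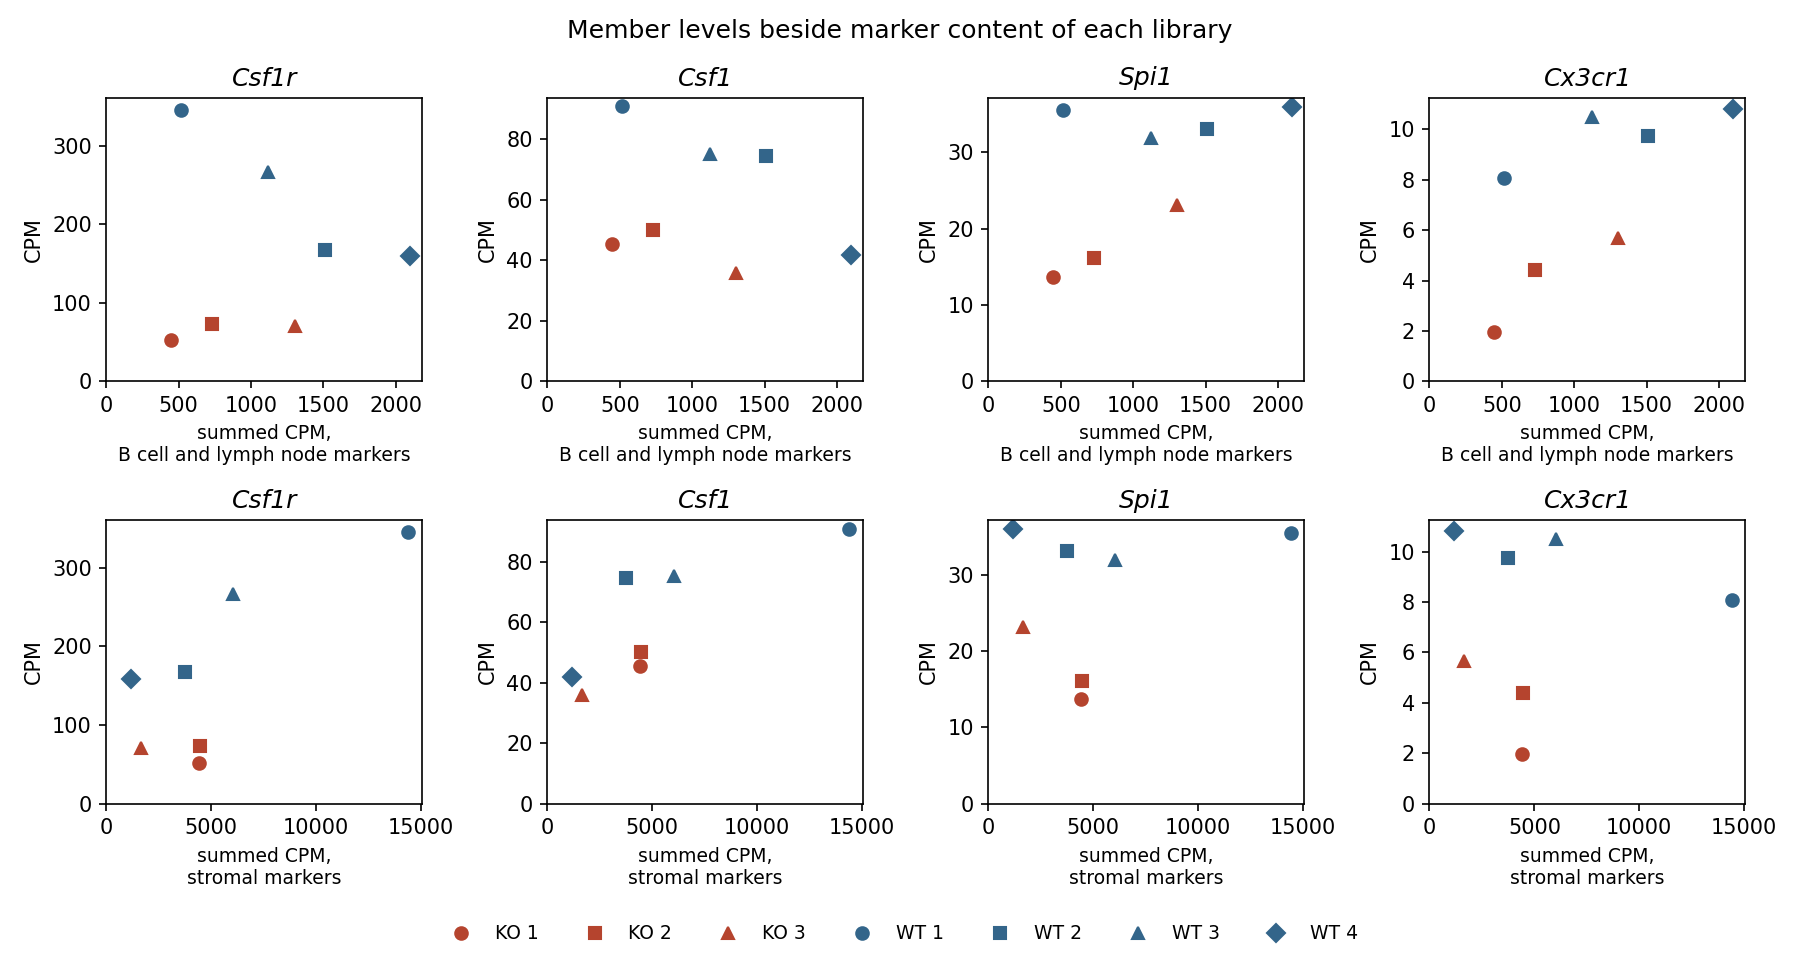
CPM of Csf1r, Csf1, Spi1 and Cx3cr1 (vertical axes) against the summed CPM of 10 B cell and lymph node markers (top row) and of 10 stromal markers (bottom row) in each KO and WT library. Csf1r lies between 52.1 and 73.0 CPM in KO and between 159 and 346 CPM in WT. The lymph node sums run from 446 to 1300 CPM in KO and from 516 to 2100 CPM in WT. The stromal sums run from 1650 to 4470 CPM in KO and from 1180 to 14400 CPM in WT. The part of either content in the difference was not tested.

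Likeness to Csf1r was measured as the root-mean-square difference in mean-centred log2 CPM over the 7 libraries. The search covered 13515 other genes with a mean of at least 1 CPM. Levels were centred but not scaled, so the distance depends on the size of a gene's differences as well as on their pattern. A gene with a smaller difference between KO and WT than Csf1r is placed farther away even if its libraries rank alike. The 5 nearest were Itgam (0.13), the integrin chain CD11b, Ticam2 (0.14), an adaptor of Toll-like receptor signalling, Fcgr3 (0.21), an antibody receptor, Nfam1 (0.26), an ITAM receptor of immune cells, and Cd200r1 (0.26), an inhibitory receptor of myeloid cells. Itgam had 10.3, 16.2 and 15.2 CPM in KO 1 to KO 3, against 65.3, 33.1, 58.8 and 26.9 CPM in WT 1 to WT 4. Among the members, Maf came closest to Csf1r (0.44, 104th nearest), then Adgre1 (0.45), Spi1 (0.56), Cx3cr1 (0.57), Csf1 (0.65) and Il34 (1.11, 9587th).

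By the same measure, the ligands had other nearest genes. The 5 nearest to Csf1 were Ifi211 (0.11), an interferon-inducible gene of a family with close copies, Ncs1 (0.12), a calcium sensor, Lpar1 (0.13), a receptor for lysophosphatidic acid, Arvcf (0.13), a catenin, and Hs3st1 (0.13), a heparan sulfate sulfotransferase. Maf was the member closest to Csf1 (0.25, 179th nearest). The 5 nearest to Il34 were Emx2os (0.12), Mapt (0.15), Cttnbp2 (0.18), Trim16 (0.18) and Glb1l2 (0.18), none of which had an unadjusted edgeR p under 0.05. Mapt, the gene of the microtubule protein tau, had 5.61, 3.90 and 2.47 CPM in KO 1 to KO 3, against 4.08, 2.63, 4.49 and 2.74 CPM in WT 1 to WT 4.

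Of 20 macrophage markers, which include Csf1r, Adgre1 and Cx3cr1, 19 were lower in KO at an unadjusted p under 0.05 and 0 higher, beside the 9.51% and 12.3% of all genes. The median over the list was -1.50 in log2, against -0.04 over all genes tested. Besides Csf1r, the markers with the smallest p were Lyve1, a hyaluronan receptor of perivascular macrophages and lymphatic vessels, and C1qa and C1qb, chains of complement C1q. C1qa had 50.1, 50.8 and 64.6 CPM in KO 1 to KO 3, against 189, 156, 163 and 96.1 CPM in WT 1 to WT 4 (log2 fold change -1.45, SE 0.24, edgeR adjusted p = 0.0956). All KO values of C1qa, C1qb (-1.52, SE 0.27) and Lyve1 (-1.68, SE 0.27) lay below WT. Mrc1, the mannose receptor (-2.04, SE 0.54), and Cd163, the receptor for haemoglobin bound to haptoglobin (-1.97, SE 0.81), overlapped, since WT 4 was at 44.7 CPM for Mrc1, within the KO values, and at 7.24 CPM for Cd163, below them. The marker sum was 675 to 1030 CPM in KO and 1990 to 2900 CPM in WT, and the member that did not reach the unadjusted threshold was Cd14 (-0.58), a co-receptor for lipopolysaccharide. The lists were drawn up with earlier results of these libraries known, and 0 genes of any list passed the edgeR adjustment over all genes.

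Of 23 macrophage transcription factors, Spi1 and Maf among them, 8 were lower and 4 higher at an unadjusted p under 0.05, beside 9.51% and 12.3% of all genes. The median over the list was -0.54 in log2. Besides Spi1 and Maf, Irf8 (-0.92, SE 0.33) and Irf5 (-0.79, SE 0.28), factors of monocytes and of inflammatory macrophages, and Nr4a1 (-0.70, SE 0.20), which patrolling monocytes need, were among the lower genes. The 4 higher genes were Bhlhe41 (1.13, SE 0.27), Cebpb (0.83, SE 0.22), Nr1h3 (0.66, SE 0.18) and Cebpa (0.54, SE 0.20). Cebpa and Cebpb also act in adipocytes, as does Nr1h3, which encodes the oxysterol receptor LXRα, and Bhlhe41 is a clock gene as well. Of the adipocyte markers, 7 of 10 were higher and 0 lower at an unadjusted p under 0.05, and the part of adipocyte content in these 4 genes was not tested. The 8 lower genes became 4 without WT 4, KO 1 or KO 2, 5 without WT 2 and WT 4, and 13 with total counts alone, where 1 was higher.

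Of 25 genes that act downstream of the receptor, 11 were lower and 1 higher at an unadjusted p under 0.05, beside 9.51% and 12.3% of all genes. The median over the list was -0.67 in log2. The other 13 ran from -0.75 to 0.30 in log2. Tyrobp, the adaptor DAP12, had 15.7, 17.1 and 25.6 CPM in KO 1 to KO 3, against 53.0, 44.9, 42.9 and 42.6 CPM in WT 1 to WT 4 (log2 fold change -1.23, SE 0.20, edgeR adjusted p = 0.0956). The inhibitory adaptors Dok1 (-0.67, SE 0.16) and Dok2 (-0.73, SE 0.20), the phosphatase gene Inpp5d (-0.91, SE 0.26) and the kinase genes Lyn (-0.68, SE 0.20) and Src (-0.63, SE 0.17) were lower in every KO library. Among the 13, Stat3 (-0.10, SE 0.13), Sos1 (0.05, SE 0.14) and Shc1 (-0.05, SE 0.15) lay near 0. The 1 higher gene was Mapk3 (0.51, SE 0.20). The 11 lower genes became 7 without KO 1 or KO 2, 17 without KO 3, 6 without WT 2 and WT 4 and 20 with total counts alone. Mapk3 was no longer past the unadjusted threshold in these, except without KO 3. No gene of this list was higher at that threshold without WT 2, WT 3 or WT 4 or with the replicate block, and 2 were without WT 1.

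Among 13 other receptors and ligands, 11 were tested, of which 4 were lower and 0 higher at an unadjusted p under 0.05, beside 9.51% and 12.3% of all genes. The 4 became 7 with total counts alone. The lower genes were Csf3r (-1.33, SE 0.39), the receptor for granulocyte colony-stimulating factor, Trem2 (-2.15, SE 0.67), a lipid receptor of macrophages, Flt3 (-0.77, SE 0.27), a receptor kinase of dendritic cell precursors, and Csf2ra (-0.51, SE 0.20), a chain of the receptor for GM-CSF. Trem2 had 1.08, 0.55 and 0.811 CPM in KO 1 to KO 3, against 8.41, 1.93, 2.68 and 1.48 CPM in WT 1 to WT 4. Kit (0.10, SE 0.27), a receptor kinase of the same class as Csf1r, and its ligand Kitl (0.10, SE 0.42) lay near 0. Cx3cl1, the ligand of Cx3cr1, had 4.53, 4.01 and 6.07 CPM in KO 1 to KO 3, against 7.39, 6.44, 6.63 and 3.74 CPM in WT 1 to WT 4, and the groups overlapped (log2 fold change -0.31, SE 0.28, edgeR adjusted p = 0.543). Ptprz1 and Sdc1, which can also bind IL-34, had log2 fold changes of 0.69 (SE 0.59) and -0.33 (SE 0.25), with edgeR adjusted p-values of 0.521 and 0.475. Csf2 and Csf3 were too low to test, at no more than 0.129 CPM in any library.

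**Figure D4:**
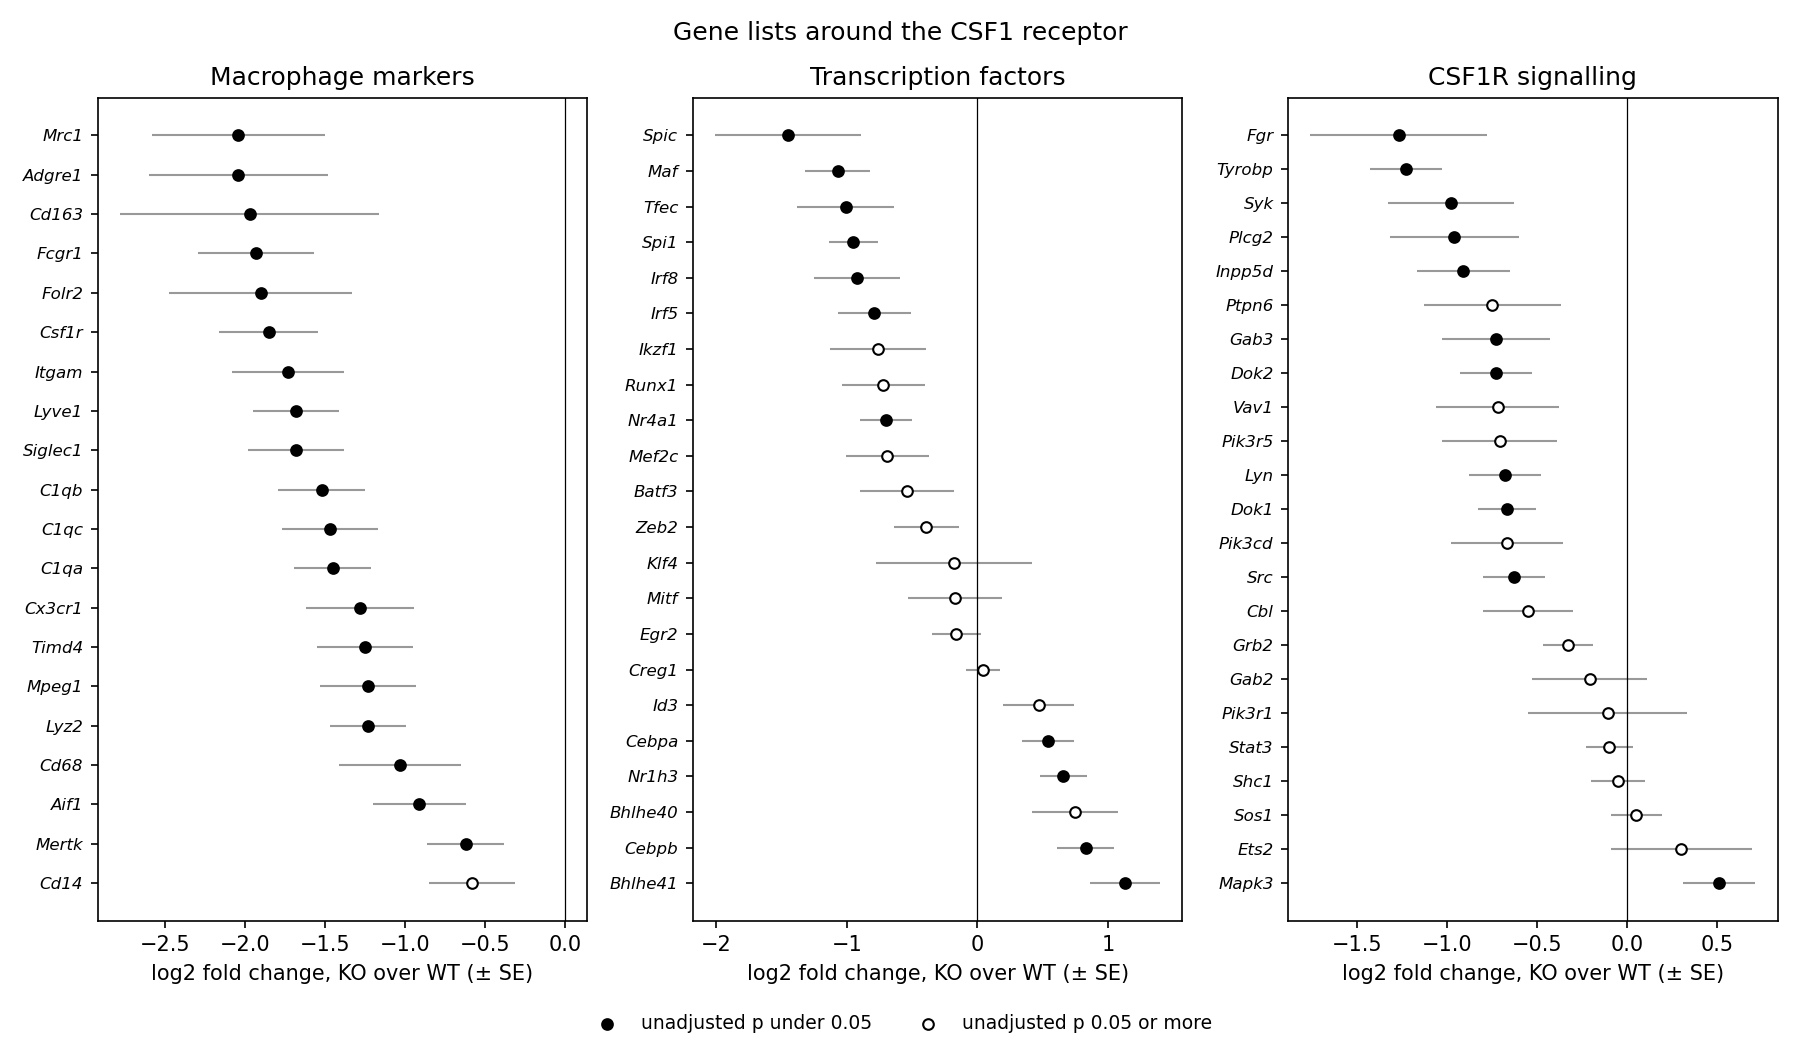
Log2 fold change of KO over WT (horizontal axis, ± SE) for genes of 3 lists; filled points have an unadjusted edgeR p under 0.05. Over the full lists, some of whose genes may not be drawn, all 20 macrophage markers were below 0. The transcription factors ran from -1.45 to 1.13 and the signalling genes from -1.27 to 0.51.

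The other marker lists are read against the same 9.51% of all genes lower and 12.3% higher at an unadjusted p under 0.05. Of 10 monocyte markers, 6 were lower and 0 higher, with a median log2 fold change of -0.96, among them Plac8 (-1.07, SE 0.21), Ccr2 (-1.19, SE 0.27) and Ly6c2 (-0.90, SE 0.23). Ccr2, the chemokine receptor that draws monocytes into tissue, had 14.8, 20.6 and 26.3 CPM in KO 1 to KO 3, against 57.2, 41.4, 56.3 and 32.2 CPM in WT 1 to WT 4. Of 8 dendritic cell markers 4 were lower (median -0.62), which became 2 without WT 2 and WT 4. Of 7 tested neutrophil markers 2 were lower (median -1.33, all under 20 CPM), which became 1 without WT 3, WT 4, KO 1 or KO 3 and 4 without KO 2, with DESeq2 or with total counts alone. Of 10 B cell and lymph node markers 1 was lower, Ccl19 (-0.71, SE 0.27), and of 8 T cell markers 0, with medians of -0.67 and -0.52. The 1 B cell and lymph node marker became 0 without WT 2, KO 1 or KO 2 and 2 without WT 1, and the 0 T cell markers became 8 without KO 3. Of 10 stromal markers 1 was lower, Dpp4 (-1.07, SE 0.17), which became 6 without WT 4 and 7 without WT 2 and WT 4. None of 8 endothelial markers was lower or higher, with a median of 0.20. Of 10 skeletal muscle markers 0 were lower or higher (median -2.73), and of 6 tested epithelial markers 2 were higher, Krt18 and Krt8 (median 0.97). KO 2 lay within the WT range for both, and the 2 became 0 without KO 1 or WT 3 and 4 without KO 2.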

How the data were processed

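The deposited values were raw read counts per gene (Entrez identifiers), whole numbers in 1 column per library per the file headers. Per the submitters' processing notes, the tools were bcl2fastq 2.20.0, Trimmomatic, HISAT2 2.1.0, StringTie 1.3.4d and DESeq2, and the build was mm10. The annotation, the counting rule and the use of strand were not given in the sources used here, so reads from overlapping genes on the other strand may be counted with a member. RNA was isolated with Trizol and libraries came from a TruSeq Stranded mRNA kit, per the labels' protocols.

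Of 29517 identifiers, 29444 matched a symbol in the RefSeq table of GRCm38.p6. In R 4.3.3, genes were filtered with filterByExpr (minimum count 10), scaled by TMM and tested for KO against WT by edgeR 4.0.16 (quasi-likelihood F-test, no covariate), with Benjamini-Hochberg adjustment over all 19185 genes at 0.05. The standard error was derived from the F statistic. CPM values use the TMM-scaled library size. Library totals ran from 49775077 to 60241436 counts. DESeq2 1.42.0, limma-voom (limma 3.58.1), other scalings and filters, and leaving out libraries were tried. The edgeR script was tested on simulated data. Ratios were tested by the exact permutation test, two-sided on the absolute difference in means.

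The named genes are the 7 members, Tm4sf5, up to 4 genes per list with the smallest p and the 5 nearest to Csf1r, Csf1 and Il34. Other list genes are named to show what did and did not pass, and were chosen after their values were seen. Some list genes enter the counts but are not reported here by name. The members and lists were chosen with earlier results of these data known. The labels name no separate animals, so p-values reflect only the spread between the libraries, which may be technical. Replicate numbers were not used to pair the libraries in the main fit, and the 3 shared numbers are too few to exclude a pairing.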

Additional observations from a re-analysis of the deposited data

Results flagged for a closer look

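The log2 ratio of Csf1 to Csf1r in WT was flagged because WT 2 stood apart from the other 3 WT libraries. It was -1.16 in WT 2, against -1.93, -1.83 and -1.92 in WT 1, WT 3 and WT 4, and the gap was 0.873 of the whole range, above Dixon's critical value for 4 samples. KO 1 to KO 3 were at -0.20, -0.55 and -0.98. In all, 14 sets of WT values were looked at in this way and chance flags about 1 in 20.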

How the results depend on the processing

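With edgeR, 0 genes passed the adjusted threshold under TMM, DESeq2-type size factors, either other filter, the replicate block or any left-out library. Total counts alone and limma-voom gave 1 gene each and DESeq2 2158, while 4187 genes had an unadjusted p under 0.05 with edgeR. That number was 2331 to 4636 with a library left out, the lowest without KO 1. Csf1r passed with DESeq2 (log2 fold change -1.85, adjusted p = 2.96e-06). Il34 turned to -0.10 with total counts alone and with WT 2 and WT 4 left out together, and ran from -0.14 (without KO 1) to 0.59 with a single library left out; the cause was not tested. With total counts alone the median over all genes was -0.35 in log2, against -0.04. That setting left out the TMM factors, which were 0.7983 to 0.9545 in the KO libraries and 1.056 to 1.16 in the WT libraries. The difference in the log2 ratio of Spi1 to Csf1r moved from 0.80 to 1.27 without WT 2 and WT 4, an alternative chosen after seeing the data because these libraries held the most muscle markers. The 6 members lower at an unadjusted p under 0.05 stayed 6 or became 5, the lost gene being Csf1. The 19 lower macrophage markers were 16 to 19 with a library left out. Among other lists, 3 adipocyte markers were higher without KO 1 (7 with all libraries) and 8 T cell markers lower without KO 3 (0 with all). Of the stromal markers, 7 were lower with the replicate block, 6 without WT 4 and 1 with all libraries and no block. Of the muscle markers, 9 were higher without WT 2 and WT 4 (0 with all).

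Deviations of same-numbered libraries from their group means correlated at 0.223, -0.171 and -0.0184, and 1 of 3 KO libraries correlated best with its own number. So few pairs cannot exclude a pairing. With the replicate block Csf1r was -1.95, Csf1 -0.88 and Il34 0.11, and 0 genes passed. With a library left out the exact tests of ratios cannot reach 0.05, and over 3 pairs their smallest p is 0.25, so they say nothing about stability there. Counts were lowest for Tm4sf5 and, among the members, for Cx3cr1, and counting error for Csf1r is small beside the spread between libraries.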
